A study of Populus ussuriensis with 12 samples.

Results

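Potri.014G103000 and Potri.001G083700 are a pair of poplar genes that the authors' table describes as homeobox-leucine zipper protein ATHB-7, and they are 2 of the 35747 genes in that table. They were chosen by that description together with their values: the first was high in watered leaves of plants overexpressing a microRNA and the second was not. The description is shared by 2 further genes, Potri.002G176300 and Potri.012G023700, and 1 gene, Potri.003G147200, is described as ATHB-12. All 5 passed the filter on low values, at least 1 FPKM in at least 3 of 12 libraries. FPKM is the fragment count of a gene scaled to its length and to the fragment total of the library, so levels of different genes can be set side by side.

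The libraries are bulk messenger RNA from the 7th and 8th leaves of Populus ussuriensis plants that were 70 days old and grew singly in pots of autoclaved soil. WT is the wild type and OE is labelled Pu-miR172d-OE; nothing in the labels names the promoter of the transgene or the number of lines. Each genotype was sampled well-watered and after 4 days without water (drought), with 3 libraries in each of the 4 groups, numbered 1 to 3 when watered and 4 to 6 in drought. The labels do not say whether libraries of a group came from separate plants, so p-values measure the spread between libraries, which may be technical.

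ATHB-7 belongs to class I of the HD-Zip proteins, plant transcription factors that join a DNA-binding homeodomain to a leucine zipper, through which they dimerise. In Arabidopsis, ATHB7 and its close relative ATHB12 are induced by water deficit and by abscisic acid (ABA), the hormone that closes stomata and sets the dehydration programme in leaves. There they are known to raise genes of clade A protein phosphatases 2C, which hold ABA signalling back, to lower genes of the PYL family of ABA receptors, and, for ATHB12, to lower a gibberellin 20-oxidase gene of growth hormone synthesis. Those roles come from Arabidopsis and were not measured here.

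Potri.014G103000 lies on chromosome 14, at 8085842 to 8087890 on the minus strand, and Potri.001G083700 on chromosome 1, at 6630824 to 6632428 on the plus strand, in the coordinates of the authors' table. The sources used here do not name its genome build. The 4 genes described as ATHB-7 share the same UniProt match, with the authors' alignment scores of 237 for Potri.014G103000, 219 for Potri.002G176300, 147 for Potri.012G023700 and 132 for Potri.001G083700. The pair thus holds the best and the poorest of the 4 matches.

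The libraries held 9682111 to 12131416 fragments. In drought the leaf mesophyll markers (29 genes of chlorophyll a-b binding proteins and the small Rubisco subunit) were far lower: their summed FPKM lay between 38435 and 47002 in WT watered libraries and between 2270 and 4038 in WT drought. In OE it lay between 26302 and 38103 when watered and between 198 and 1135 in drought. Guard cell markers (4 genes) summed to 41.2 to 48.0, 74.5 to 96.2, 47.8 to 68.8 and 39.9 to 53.6 FPKM in the same order. Of the mesophyll markers 26 of 29 reached 1 FPKM in watered WT leaves, and the single meristem marker was at most 1.53 FPKM in any library. In bulk leaves, fewer cells of a type and less RNA per cell cannot be told apart, and the part of these shifts in the results on drought was not tested. WT drought replicate 6 correlated least with its group (mean r 0.926, against 0.947 and 0.950 for the other two). No analysis of the overexpressed microRNA was made. Among the 6 genes described as AP2, the family that miR172 targets, limma called 0 lower in OE than in WT when watered. The count was 0 also at an unadjusted p under 0.05 and by voom. Over all tested genes 0.0394% were lower there, so 0 calls among 6 genes is near that share. In drought 0 of the 6 were lower in OE and 3 (50%) higher, beside 20.2% and 9.19% of all genes. The targets thus give no check of the OE label.

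Potri.014G103000 was low in watered WT leaves and among the most abundant transcripts everywhere else. In WT watered libraries its level was 14.4, 2.21 and 11.5 FPKM in replicates 1 to 3. In WT drought libraries it was 856, 820 and 498 FPKM in replicates 4 to 6. All 3 drought libraries thus lay far above all 3 watered ones, and the widest relative scatter was among the watered libraries, where replicate 2 was lowest (coefficient of variation 67.8%, against 27.2% in drought).

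In OE watered libraries Potri.014G103000 stood at 1242, 1854 and 1210 FPKM. In OE drought libraries it stood at 1370, 1109 and 1518 FPKM. The 2 OE groups overlapped with each other, and each library of either lay above each WT drought library. By mean level the order was OE watered (1435 ± 363, SD, n = 3), OE drought (1332 ± 207), WT drought (725 ± 197) and WT watered (9.37 ± 6.36). The watered OE values chose the pair, so the place of that group in the order carries no test. The difference between the genotypes in drought did not pass the test given below. Ranked by FPKM within its library, it was gene 7080 to 18834 in WT watered and 43 to 89 in WT drought libraries. In OE it was gene 19 to 59 when watered and 22 to 44 in drought. These levels rest on 44 to 293 fragments in WT watered libraries and on 11576 or more in every other library.

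Potri.001G083700 followed another course. Its level in WT watered libraries was 1.78, 2.48 and 1.60 FPKM, and in WT drought libraries 249, 162 and 69.0 FPKM. OE watered libraries had 5.39, 3.70 and 4.87 FPKM, and OE drought libraries 29.3, 21.2 and 29.2 FPKM. No 2 groups overlapped, and the order was WT drought (160 ± 90.2, SD, n = 3), OE drought (26.6 ± 4.63), OE watered (4.65 ± 0.867) and WT watered (1.95 ± 0.467). Between watered and drought libraries, 62.9% of all tested genes had groups that did not overlap in WT and 70.0% in OE. Between the genotypes the shares were 44.9% in drought and 17.5% when watered, and the watered genotype values chose the pair. No share was counted for groups that differ in both genotype and watering. WT drought replicate 6 was the lowest of its group for both genes of the pair. The watered values rest on 23 to 86 fragments per library.

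**Figure D1:**
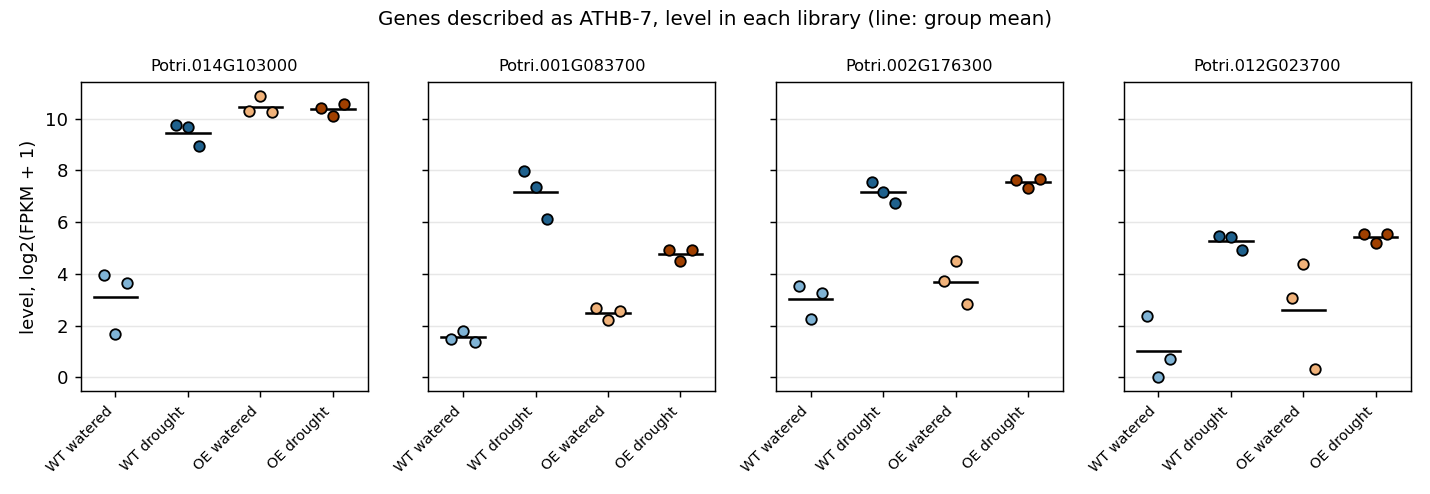
Level of each gene described as ATHB-7 in each library, as log2(FPKM + 1), by group, with a line at the group mean of 3 libraries. Potri.014G103000 is high in every group except WT watered, Potri.001G083700 is highest in WT drought, and the other two are high in the drought groups of both genotypes.

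Both genes were higher in WT drought than in watered WT leaves, and in neither did the groups overlap. The watered WT libraries also stand in the genotype difference by which the pair was chosen, so the drought difference is given as values with no test. For Potri.014G103000 it was 6.37 on the scale of log2(FPKM + 1), a 77.3-fold higher mean FPKM and rank 11 among the increases of 25373 genes. For Potri.001G083700 it was 5.60, an 82.0-fold higher mean and rank 32. Over all genes, tested with limma on the same scale and Benjamini-Hochberg adjustment, 33.9% rose, 55.5% changed in either direction and 62.9% had groups that did not overlap in WT drought. The median change of all genes was 0.25, which median-of-ratios scaling brought to 0.01; relative to that median the pair's differences were 6.13 and 5.35. With that scaling they were 6.10 and 5.33. Without WT drought replicate 6 they were 6.62 and 6.11.

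Between the genotypes in drought, the pair parted. Potri.001G083700 was lower in OE than in WT by -2.38 ± 0.36 on the log2 scale (SE; 95% interval -3.17 to -1.59; adjusted p = 0.00127 by limma), and its mean FPKM in OE was 0.166 of that in WT, with all 3 OE libraries below all 3 WT libraries. For Potri.014G103000 the same difference was 0.91 ± 0.48 (95% interval -0.15 to 1.96; adjusted p = 0.174), which did not pass, although its 3 OE libraries lay above its 3 WT libraries. In this comparison 20.2% of tested genes were lower in OE, 9.19% were higher and 44.9% had groups that did not overlap. The median difference of all genes was -0.24 (-0.03 with median-of-ratios scaling), and relative to it the differences were -2.14 and 1.15. Without WT watered replicate 2, which enters only the shared estimate of spread, the adjusted p of Potri.014G103000 was 0.0340. Markers of other cell types moved in the same comparison. Of the leaf mesophyll markers 23 of 26 tested were lower in OE drought than in WT drought. Of the epidermis markers (55 genes of 3-ketoacyl-CoA synthases of wax synthesis and lipid transfer proteins, 30 tested) 11 were lower and 4 higher; their summed FPKM spanned 3211 to 4421 over the WT drought libraries but 1687 to 1908 over those of OE drought, and watered libraries spanned 1284 to 1853 (WT) and 1265 to 2650 (OE). The sum was thus highest in WT drought, as was Potri.001G083700, although of the 30 tested genes 7 rose and 9 fell in WT drought. Their median change there was -0.17, against 0.25 over all genes. The guard cell sum was also highest in WT drought, although of the 3 tested genes 2 rose and 1 fell there. That list holds the SRK2E kinase gene Potri.009G106900, which is counted again among the SnRK2 kinases below. Its mean was 51.9 FPKM in WT drought, so the sum there rests largely on this gene. SRK2E rose by 1.33 on the log2 scale in WT drought and differed by -1.42 between OE and WT in drought. Of 3 guard cell markers tested, 2 were lower and 1 higher in OE drought than in WT drought. Of 27 phloem markers tested 2 were lower and 0 higher, and of 47 xylem markers 1 was lower and 4 higher. The part of these shifts in the lower level of Potri.001G083700 was not tested.

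The watered genotype difference chose the pair and is given as values only. The mean FPKM of Potri.014G103000 was 153-fold higher in OE than in WT watered leaves, a difference of 7.37 on the log2 scale, the highest of all tested genes. The next was 3.66, for a gene described as bark storage protein B (Potri.013G101000). Potri.001G083700 differed by 0.94 on that scale and 2.38-fold in mean FPKM. At the call threshold 0.138% of tested genes (35) differed between the genotypes in watered leaves, and 17.5% had groups that did not overlap. The drought change within OE was -0.09 for Potri.014G103000 (0.04 with median-of-ratios scaling) and 2.28 for Potri.001G083700, against a called share of 62.7% of all genes. The drought change of OE minus that of WT was -6.46 and -3.31 for the 2 genes, so for each the change was smaller in OE than in WT; neither is tested, since the OE watered values enter it.

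Within a library, the ratio of the 2 levels shows how the pair's balance moved. On the log2 scale, Potri.014G103000 over Potri.001G083700 was 2.47, -0.12 and 2.27 in WT watered and 1.78, 2.33 and 2.83 in WT drought libraries. It was 7.60, 8.62 and 7.69 in OE watered and 5.50, 5.64 and 5.65 in OE drought libraries. The WT groups overlapped, and both OE groups lay above every WT library. From WT watered to WT drought the mean ratio differed by 0.77 (given with no test, for the reason above), and without WT watered replicate 2 the difference was -0.06. In drought the ratio was 3.28 higher in OE than in WT (exact permutation test, two-sided, n = 3 against 3, p = 0.1, the smallest that this design allows).

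**Figure D2:**
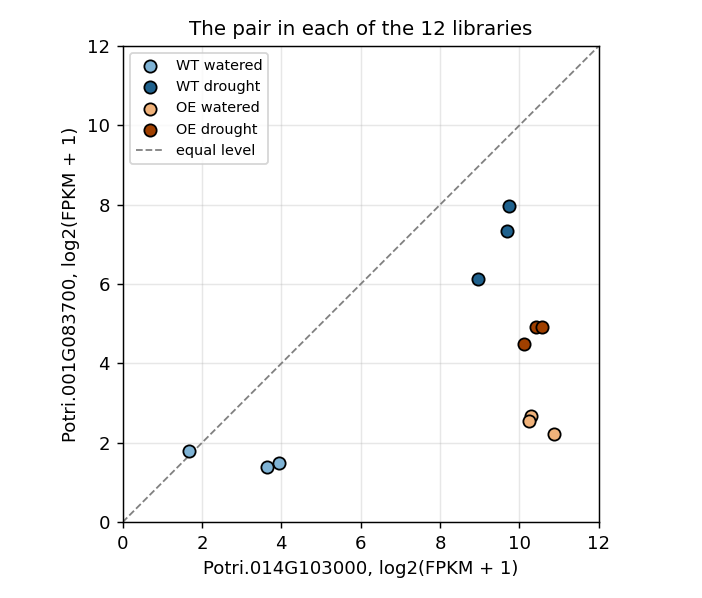
Level of Potri.001G083700 against that of Potri.014G103000 in the same library, both as log2(FPKM + 1), for the 12 libraries by group, with a dashed line of equal level. WT libraries move up along both axes in drought, while the OE libraries all lie at 10 or more on the horizontal axis and between 2.23 and 4.92 on the vertical axis.

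The other two genes described as ATHB-7 rose in drought in both genotypes. Potri.002G176300 (chromosome 2, 13539679 to 13541280, minus strand) had mean levels of 7.58 ± 3.45 FPKM in WT watered, 145 ± 40.5 in WT drought, 13.3 ± 7.78 in OE watered and 187 ± 24 in OE drought leaves (SD, n = 3). It rose by 4.14 ± 0.41 on the log2 scale in WT (SE; adjusted p = 9.67e-06) and by 3.86 ± 0.41 in OE (adjusted p = 8.13e-06), where 27.7% of tested genes rose. Its OE libraries overlapped with WT in each watering: the genotype difference was 0.68 when watered (adjusted p = 0.691) and 0.40 in drought (adjusted p = 0.482). Its interaction, the drought change in OE minus that in WT, was -0.28 (adjusted p = 0.764), where 14.8% of genes were called, 4.54% with a higher and 10.2% with a lower value.

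Potri.012G023700 (chromosome 12, 2078724 to 2079944, plus strand) was at 4.16, 0 and 0.635 FPKM in WT watered and at 43.3, 41.4 and 29.6 FPKM in WT drought libraries. It was at 7.38, 20.1 and 0.269 FPKM in OE watered and at 45.4, 35.4 and 46.2 FPKM in OE drought libraries. Drought raised it by 4.25 ± 0.83 in WT (adjusted p = 0.00118) and by 2.83 ± 0.83 in OE (adjusted p = 0.0106). The rise in OE was 1.70 without OE watered replicate 3 and 3.72 without OE watered replicate 2. The OE watered libraries spread from under the median WT library to above the highest, and the watered genotype difference of 1.58 did not pass (adjusted p = 0.635), nor did the drought one of 0.16 (adjusted p = 0.906). Leaving out OE watered replicate 3 moved the watered difference to 2.71 (adjusted p = 0.0655), leaving out OE watered replicate 2 to 0.68, and leaving out WT watered replicate 2 to 1.06. Potri.003G147200, described as ATHB-12, reached at most 1.69 FPKM, on 5 fragments, and passed in 0 of the 5 comparisons, so a change of it was not detectable at this depth.

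**Figure D3:**
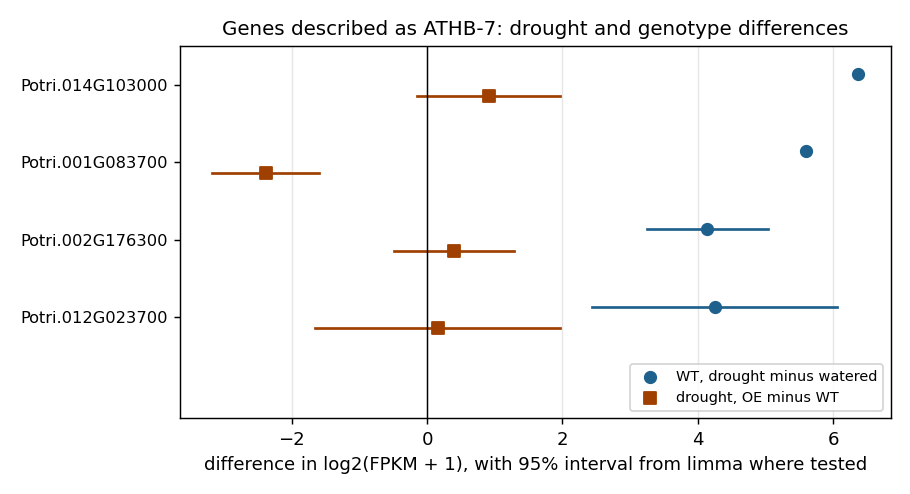
Differences in log2(FPKM + 1) for the 4 genes described as ATHB-7, in 2 comparisons: drought minus watered in WT (circles) and OE minus WT in drought (squares), with 95% intervals from limma except for the untested drought differences of the pair. All 4 drought differences lie above 0, and of the genotype intervals that of Potri.001G083700 alone excludes 0.

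Potri.002G176300 aligned to the shared protein nearly as well as Potri.014G103000. That score does not measure how alike the 2 poplar transcripts are, and no sequences were compared here. Any reads that fit both genes could have been split by the authors' counting. The fragments counted to Potri.002G176300 were 0.397 to 0.908 per 100 of Potri.014G103000 in OE watered libraries, 10.5 to 11.3 in OE drought, 13.6 to 17 in WT drought and 56.7, 132 and 57.9 in WT watered libraries. The ratio was thus lowest in OE watered and highest in WT watered libraries, and the part of such splitting in either gene's level was not tested. Deviations of the 2 genes from their group means correlated at r = 0.807 over the 12 libraries, against 0.0842 for the pair; this is a description, and the libraries share depth and composition.

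Among all 21 genes described as HD-Zip class I, Potri.014G103000 took the first place in 3 of 4 groups. Its share of the summed FPKM of the class was 0.380% to 1.94% in WT watered libraries and 36.5% to 46.3% in WT drought. In OE the share was 62.5% to 63.6% when watered and 66.3% to 71.1% in drought. Potri.001G083700 made up 5.05% to 12.9% in WT drought and at most 1.42% in any other library. In WT watered leaves the highest genes of the class were HAT5 (Potri.012G070900, 225 ± 23 FPKM) and ATHB-6 (Potri.005G071900, 192 ± 28.7 FPKM), and Potri.014G103000 was 8 in that order. In OE watered leaves the runner-up was again HAT5 Potri.012G070900, at 277 ± 72.6 FPKM. ATHB-40 (Potri.007G029500) and ATHB-21 (Potri.005G126100) were at the bottom in WT watered leaves, at 0 in all 3 libraries.

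**Figure D4:**
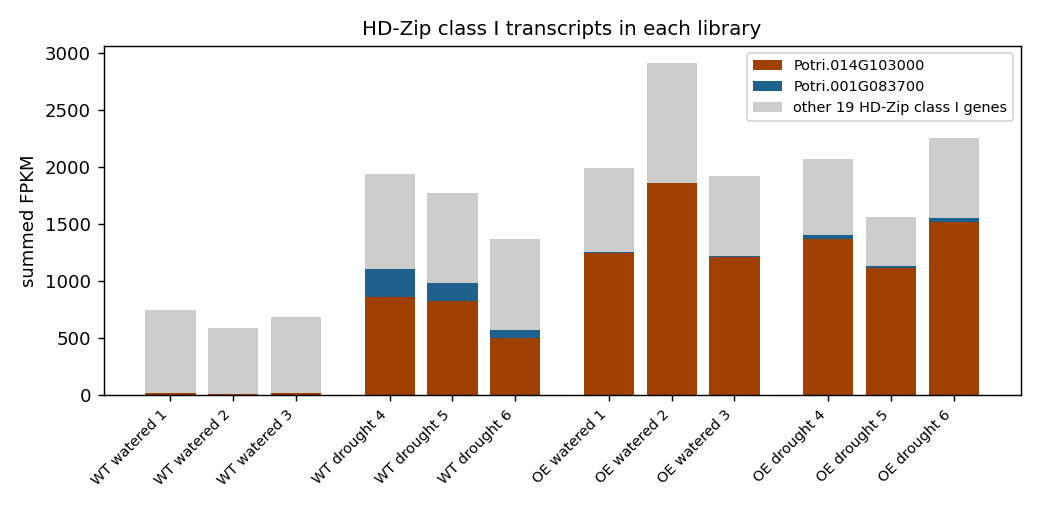
Summed FPKM of the 21 HD-Zip class I genes in each library, split into Potri.014G103000, Potri.001G083700 and the other 19 genes. The bars start at 0; Potri.014G103000 fills 62.5% to 71.1% of each OE bar and under 2% of each WT watered bar.

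Of the 15 other class I genes tested, 3 rose and 9 fell in WT drought, beside 33.9% and 21.6% of all tested genes, with a median change of -0.79 against 0.25. The 2 largest rises were the other two ATHB-7 genes. HAT7 (Potri.017G081700) fell by 3.43 on the log2 scale, from 10.7 to 0.0881 FPKM (adjusted p = 4.39e-06), and ATHB-13 (Potri.010G093400) fell by 2.37, from 23.3 to 4.31 FPKM (adjusted p = 5.50e-04). In OE drought 2 rose and 11 fell, beside 27.7% and 34.9% of all genes. In watered leaves 1 of the 15 differed between the genotypes, beside 0.0985% of all genes that were higher and 0.0394% that were lower in OE: ATHB-52 (Potri.017G016900) was at 10.8, 11 and 15.4 FPKM in OE and at 3.86, 3.96 and 5.36 FPKM in WT libraries, a difference of 1.30 ± 0.21 (adjusted p = 0.0405). That call was lost with median-of-ratios scaling (adjusted p = 0.0561). In drought 3 of the 15 were lower in OE and 0 higher, among them 2 genes described as ATHB-13: Potri.008G148200 by -1.34 ± 0.30 (adjusted p = 0.00781) and Potri.010G093400 by -1.26 ± 0.41 (adjusted p = 0.0384; -0.77 without WT drought replicate 6). The call of Potri.010G093400 was lost with median-of-ratios scaling and without any WT watered library, WT drought replicate 6, OE watered replicate 1 or OE drought replicate 4 or 5. The count of lower genes was 1 without OE drought replicate 5 and 5 without replicate 6. The 9 that fell in WT drought were 6 without WT drought replicate 6.

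Most of the phosphatases 2C listed for ABA signalling rose in drought. They were picked by the numbers in their descriptions, and whether each belongs to clade A, the negative regulators of ABA signalling, was not established. Of 17 tested, 12 (70.6%) rose and 0 fell in WT drought, beside 33.9% and 21.6% of all genes, with a median change of 1.56 against 0.25 over all genes. Protein phosphatase 2C 3 (Potri.009G037300) rose from 2.88 ± 0.738 to 149 ± 46.4 FPKM, by 5.24 ± 0.26 on the log2 scale (adjusted p = 8.75e-08). In OE drought 11 rose and 2 fell (64.7% and 11.8%, beside 27.7% and 34.9% of all genes). Of the 2 that fell, 1 was left in each of 7 fits that left out a library: any WT watered replicate, WT drought replicate 4, OE watered replicate 2 or 3, or OE drought replicate 5. In watered leaves 1 of 17 passed between the genotypes, beside 0.138% of all genes. This gene, protein phosphatase 2C 8 (Potri.012G002700), was at 17.4, 20.1 and 21.3 FPKM in OE and at 5.43, 6.70 and 8.14 FPKM in WT libraries, 1.42 ± 0.21 higher (adjusted p = 0.0313, and 0.0587 with median-of-ratios scaling). Its watered OE level stayed below its WT drought level of 122 ± 30.7 FPKM. In drought 4 were higher in OE and 1 lower, beside 9.19% and 20.2% of all genes: a gene described as phosphatase 2C 51 (Potri.T137100) was 1.36 ± 0.25 higher (adjusted p = 0.00337; 0.102 with a pseudocount of 0.1), and another described as 2C 8 (Potri.001G092100) was lower by -1.81 ± 0.18 (adjusted p = 1.07e-04). The count of lower genes was 4 without WT drought replicate 6 and 2 without OE drought replicate 6.

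The PYL and PYR receptors, which bind ABA and inhibit clade A phosphatases 2C, moved both ways. Of 11 tested, 2 (18.2%) rose and 4 (36.4%) fell in WT drought, beside 33.9% and 21.6% of all genes, with a median of 0.02. A gene described as PYL2 (Potri.006G230600) fell by 2.99, from 14.2 to 0.893 FPKM (adjusted p = 2.48e-06), and PYL6 (Potri.010G183900) fell by 2.68, from 15.9 to 1.85 FPKM (adjusted p = 4.64e-05). In OE drought 0 rose (1 without OE watered replicate 2) and 7 (63.6%) fell, beside 27.7% and 34.9% of all genes. In watered leaves limma called 0 of 11 between the genotypes, beside 0.138% of all genes (5 of the 11 at an unadjusted p under 0.05, and 0 by voom). In drought 2 (18.2%, beside 20.2% of all genes) were lower in OE, both described as PYL2: Potri.018G054400 by -1.10 ± 0.31 (adjusted p = 0.0233) and Potri.006G230600 by -0.71 ± 0.25 (adjusted p = 0.0483, and 0.147 in the least favourable alternative). Both were low in drought, with means of 0.665 (OE) and 2.58 FPKM (WT) for Potri.018G054400. For Potri.006G230600 the means were 0.152 (OE) and 0.893 FPKM (WT), both under the 1 FPKM of the filter. Of these 2 calls 0 were left without WT drought replicate 4 or without OE drought replicate 4 or 5, and 1 without WT watered replicate 1 or 2, WT drought replicate 5, OE watered replicate 3 or OE drought replicate 6. Of the 3 gibberellin 20-oxidase genes tested, all described as form 2, 3 fell in WT drought and 3 in OE drought, beside 21.6% and 34.9% of all genes. Potri.007G103800 fell by 2.11 in WT, from 5.22 to 0.375 FPKM (adjusted p = 0.00127). Potri.015G134600 fell by 1.60, from 31.2 to 10.6 FPKM (adjusted p = 0.0405), but lost its call in 10 of 18 alternatives (adjusted p = 0.107 without WT watered replicate 1), among them the fits without any single watered library and without WT drought replicate 4 or 5. Between the genotypes limma called 0 of the 3 in either watering (at an unadjusted p under 0.05, 1 when watered and 0 in drought, and 0 by voom). Of all genes 0.138% were called between the genotypes when watered and 29.4% in drought.

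Of 13 SnRK2 kinases tested, 7 (53.8%) rose in WT drought and 0 fell. Some kinases of this family act further down the ABA pathway, once the phosphatases are inhibited, and the list was not split by subclass. Of 11 bZIP factors of ABA, a group that such kinases activate, 8 (72.7%) rose and 1 (9.09%) fell in WT drought. Of all genes 33.9% rose and 21.6% fell. The bZIP fall was lost without WT watered replicate 2 or 3, WT drought replicate 4 or 5, or OE watered replicate 3. SAPK2 (Potri.005G072600) rose by 3.31 ± 0.28, from 0.187 to 11.3 FPKM, and SRK2E (Potri.009G106900), the kinase of guard cell closure in Arabidopsis, by 1.33 ± 0.19. The genes described as ABI5-like protein 5 rose by 2.57 ± 0.23, from 15 to 97.1 FPKM (Potri.014G028200), and by 1.94 ± 0.15, from 11.6 to 47.4 FPKM (Potri.002G125400). In OE drought 3 SnRK2 genes rose (23.1%) and 1 fell, and 3 bZIP genes rose (27.3%) and 1 fell, beside 27.7% and 34.9% of all genes. Without OE watered replicate 2 the falls numbered 0 and 2. The SnRK2 fall was also lost without OE drought replicate 5, and the bZIP fall without OE watered replicate 3 or OE drought replicate 6. Between the genotypes limma called 0 of either list in watered leaves, beside 0.138% of all genes (at an unadjusted p under 0.05, 1 kinase and 2 bZIP genes, and 0 by voom). In drought 4 SnRK2 genes (30.8%, beside 20.2% of all genes) were lower in OE, led by SRK2E by -1.42 ± 0.19 (adjusted p = 5.22e-04) and a second gene described as SAPK2 (Potri.005G162500) by -0.79 ± 0.18 (adjusted p = 0.00916), and 1 bZIP gene (9.09%) was lower, ABI5-like protein 6 (Potri.004G140600) by -0.96 ± 0.24 (adjusted p = 0.0123; -0.62 without OE drought replicate 5). With median-of-ratios scaling 2 SnRK2 genes were higher and 2 lower. Without replicate 4 or 5 of either drought group 2 were lower, and without WT drought replicate 6 the count of lower bZIP genes was 5.

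Among 16 genes that make or break down ABA, 5 rose and 5 fell in WT drought, 31.2% each beside 33.9% and 21.6% of all genes, so the rises were near the share of all genes. NCED1 (Potri.011G112400), of the rate-limiting step of synthesis, rose from 3.65 ± 0.428 to 194 ± 76.1 FPKM, by 5.31 ± 0.31, and ABA 8'-hydroxylase 1 (Potri.004G235400), which breaks ABA down, from 3.62 ± 0.966 to 208 ± 37.1 FPKM, by 5.51 ± 0.22. In OE drought 6 rose and 7 fell (37.5% and 43.8%, beside 27.7% and 34.9%). In watered leaves 1 of 16 passed between the genotypes, beside 0.138% of all genes. It was the same hydroxylase 1 gene, at 10.1, 10.4 and 14 FPKM in OE and 2.50, 4.11 and 4.24 FPKM in WT libraries, 1.45 ± 0.22 higher (adjusted p = 0.0319). In drought 2 were higher in OE and 4 lower (12.5% and 25%, beside 9.19% and 20.2% of all genes); ABA 8'-hydroxylase 2 (Potri.009G033900) was 2.38 ± 0.41 higher (adjusted p = 0.00232) and ABA 8'-hydroxylase 4 (Potri.004G140900) lower by -1.40 ± 0.45 (adjusted p = 0.0354; lost with median-of-ratios scaling and without WT drought replicate 4 or 5 or any OE drought library). The count of lower genes was 1 without WT drought replicate 4 or 5 or OE drought replicate 5, and 2 without OE drought replicate 6.

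Of 56 genes of the dehydration response, 24 rose and 10 fell in WT drought (42.9% and 17.9%, beside 33.9% and 21.6% of all genes), with a median of 0.44. In OE drought 27 rose and 22 fell (48.2% and 39.3%, beside 27.7% and 34.9%). Late embryogenesis abundant protein D-29 (Potri.005G122400), of a family that protects cells on drying, rose in WT from 2.76 ± 0.607 to 200 ± 43.1 FPKM, by 5.73 ± 0.22. The gene of late embryogenesis abundant protein Lea5 (Potri.010G012100) rose by 5.70 ± 0.83, from 23.5 to 1001 FPKM. D-29 was the 1 of 56 that passed between the genotypes in watered leaves, beside 0.138% of all genes. It was at 6.07, 9.99 and 10.8 FPKM in OE and 2.11, 2.84 and 3.32 FPKM in WT libraries, 1.38 ± 0.22 higher (adjusted p = 0.0355). In drought 8 were higher in OE and 15 lower (14.3% and 26.8%, beside 9.19% and 20.2%; 9 and 9 genes with median-of-ratios scaling). RD22 (Potri.006G243700) was lower by -2.37 ± 0.41 (adjusted p = 0.00249), and the desiccation-related protein PCC13-62 (Potri.001G380000) was 2.02 ± 0.70 higher (adjusted p = 0.0494), a call lost in 13 of 19 alternatives, among them the fits without any single WT or OE drought library. Without OE drought replicate 4, 5 or 6 the higher genes numbered 3, 4 and 3, and without replicate 5 the lower ones 8.

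Of 23 genes of senescence and chlorophyll breakdown, 15 rose and 7 fell in WT drought (65.2% and 30.4%, beside 33.9% and 21.6% of all genes). In OE drought 11 rose and 7 fell (47.8% and 30.4%, beside 27.7% and 34.9%). In drought 4 were higher in OE than in WT and 3 lower (17.4% and 13%, beside 9.19% and 20.2%; 5 lower without WT drought replicate 6). In watered leaves limma called 0 of the 23 between the genotypes, beside 0.138% of all genes (3 of the 23 at an unadjusted p under 0.05, and 0 by voom). The gene described as STAY-GREEN LIKE (Potri.005G184700) fell by 4.43 in WT drought, from 39 to 1.29 FPKM (adjusted p = 7.66e-06). Chlorophyllase-1 (Potri.005G214200), which removes the chlorophyll side chain, rose by 3.99 ± 0.56, from 12.4 to 187 FPKM. Between the genotypes in drought, STAY-GREEN 1 (Potri.001G112600) was 1.54 ± 0.35 higher in OE (adjusted p = 0.00870) and chlorophyllase-2 (Potri.010G082300) lower by -1.45 ± 0.43 (adjusted p = 0.0281; -0.83 without OE drought replicate 5, and no longer called without that library or WT drought replicate 4 or 5).

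These ABA, dehydration, senescence and other class I lists held 11 to 56 tested genes each. Over them 4 genes in all were called between the genotypes in watered leaves, each higher in OE. Of all genes 0.0985% were higher and 0.0394% lower in OE in that comparison. The WT watered to WT drought changes of these 4 genes were -0.79 for ATHB-52, 3.97 for phosphatase 2C 8, 5.51 for ABA 8'-hydroxylase 1 and 5.73 for late embryogenesis abundant protein D-29. Each of the 4 calls was lost when only the 2 watered groups were fitted, with adjusted p from 0.0911 to 0.136, so they rest on the spread shared over all 4 groups. Each was also lost without replicate 1 or 2 of either watered group and without OE drought replicate 4 or 6, and their highest adjusted p over all alternatives was 0.227 to 0.303. The differences themselves stayed between 1.15 and 1.69.

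The genes most like Potri.014G103000 over the 12 libraries, by Pearson's r of log2(FPKM + 1), were bHLH35 (Potri.018G141800, r = 0.956), thioredoxin-like 3-2 (Potri.008G036400, 0.929), alanine aminotransferase 2 (Potri.001G162800, 0.909), Potri.018G027800 with no description (0.899) and MARD1 (Potri.008G154600, 0.895). bHLH35 had mean levels of 13.5, 27.3, 31.1 and 28.2 FPKM in WT watered, WT drought, OE watered and OE drought leaves, the same order of groups over a far narrower range. Most like Potri.001G083700 were a low-temperature-induced 65 kDa protein gene (Potri.015G143932, 0.991), bem46 (Potri.006G145200, 0.987), Potri.003G146100 (0.987), expansin-like B1 (Potri.001G151500, 0.986) and Potri.015G144000 (0.985). The first of these had 0.690, 68.3, 2.57 and 14.2 FPKM and expansin-like B1 5.20, 289, 14.3 and 50.9 FPKM in the same order of groups. Over the same libraries the pair itself correlated at 0.540. These correlations describe 4 groups of 3 libraries each and carry no test.

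With the group means removed, the genes closest to Potri.014G103000 were amino acid permease 2 (Potri.007G100100, r = 0.938), a CCCH zinc finger protein (Potri.010G176300, 0.934), a glycerol-3-phosphate transporter (Potri.003G109300, 0.928), SKIP5 (Potri.001G025600, 0.925) and Potri.009G002100 (0.925). Closest to Potri.001G083700 were subunit C of an organelle amidotransferase (Potri.018G058200, 0.975), Obg-like ATPase 1 (Potri.011G164000, 0.966), Potri.012G057700 (0.963), ADNT1 (Potri.014G095400, 0.958) and bHLH30 (Potri.008G116000, 0.958). No gene stood in both sets of 5.

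The neighbours of Potri.014G103000 on chromosome 14 were compared in the same watered leaves. The nearest annotated gene, a Prp31 splicing factor gene (Potri.014G102800) 4803 bases away, had a watered genotype difference of 0.17 (adjusted p = 0.844), and on the other side the nearest gene lay 32214 bases away. Of the 4 neighbours on each side, 6 were tested and limma called 0 of them in watered leaves (2 at an unadjusted p under 0.05, and 0 by voom), with differences from -1.16 to 0.85. Of all genes 0.138% were called between the genotypes in watered leaves, so 0 calls among so few genes is near that share. Around Potri.001G083700, 5 of 8 neighbours were tested and 0 called in that comparison (1 at an unadjusted p under 0.05, and 0 by voom). The nearest, a Mediator subunit 10b gene (Potri.001G083800) 769 bases away, did not pass in WT drought either (0.40, adjusted p = 0.156). Of the 5 tested neighbours of Potri.001G083700, however, 4 were called in WT drought, and so were 5 of the 6 around Potri.014G103000. Of all genes 55.5% were called there. Between the genotypes in drought, 2 of the 5 tested neighbours of Potri.001G083700 were called, and 2 of the 6 around Potri.014G103000, each lower in OE. In that comparison 29.4% of all genes were called and 20.2% were lower in OE. The library kit does not mark strand, so reads from antisense transcripts within either gene cannot be told apart from its own.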

How the data were processed

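The authors deposited FPKM values per gene with positions, descriptions and an alignment score of each gene's UniProt match. HISAT2 2.1.0 and Bowtie2 2.2.3 appear in the submitters' processing notes, with no role stated; the sources used here name neither a genome build nor a tool that counted fragments. The unit of every value is FPKM as deposited. Low FPKM values are whole steps of 1 fragment: recovered gene lengths came out whole within 0.02 for 99.3% of genes, which gave the library totals and fragment counts; these whole reads also entered limma-voom as an alternative. Intervals cover the spread between libraries, and fragment counts limit precision at low levels.

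Values of log2(FPKM + 1) for the 25373 genes that reached 1 FPKM in at least 3 of 12 libraries were fitted to 4 group means with limma 3.58.1 in R 4.3.3 (robust, with an intensity trend, 8 residual degrees of freedom, median prior 3.79), with Benjamini-Hochberg adjustment over all tested genes and a threshold of 0.05. The procedure was tested on simulated data. Tests of the pair's WT drought difference and of its ratio between WT groups were planned but are not given, because the watered WT libraries also enter the genotype difference that chose the pair. A fold on this scale understates the change of low genes. Figures and counts used Python 3.11.15. The members and gene lists were chosen with earlier results of these data known. The lists (other HD-Zip class I, phosphatases 2C, ABA receptors, SnRK2, bZIP, ABA synthesis and breakdown, dehydration, gibberellin 20-oxidase, senescence) were found by words in the descriptions and are described by counts and medians. Named genes are the pair, all genes described as ATHB-7 or ATHB-12, the 5 most like each member, up to 2 of the largest changes called in a list in WT drought and between the genotypes in drought, every such call in watered leaves and the extremes of class I. Alternatives were the pseudocount, the filter, scaling, the groups fitted, voom, a replicate block and leaving out each library. No sequence is printed, since no reference was used here.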

Additional observations from a re-analysis of the deposited data

Results flagged for a closer look

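The drought change differed between the genotypes, by the interaction term of the same limma fit (drought change in OE minus that in WT, adjusted p under 0.05), in 11 of 31 genes named from the lists. The 31 were named for their large called differences, which are components of this term, so the values are a description, and the count cannot be read against the 14.8% of all genes tested that were called. ATHB-52 (Potri.017G016900) had an interaction of -2.04 on the log2 scale: it was highest in watered OE leaves (12.4 FPKM) and lowest in OE drought (0.877 FPKM). Late embryogenesis abundant protein D-29 (Potri.005G122400) had -2.34 and ABA 8'-hydroxylase 1 (Potri.004G235400) -1.37, each with a rise in both genotypes that was smaller in OE. Of the phosphatases, 2C 8 Potri.001G092100 had -2.08 and 2C 51 Potri.T137100 had 1.16, a larger rise in OE. PYL2 Potri.018G054400 had -1.93, SRK2E Potri.009G106900 -1.89, SAPK2 Potri.005G162500 -1.08 and ABI5-like protein 6 Potri.004G140600 -1.45. ABA 8'-hydroxylase 2 Potri.009G033900 had 2.78, with mean levels of 39.9 and 37.6 FPKM in watered and drought WT and 30.3 and 169 FPKM in OE, and ABA 8'-hydroxylase 4 Potri.004G140900 had -2.52. For the ATHB-7 pair the same term was not tested, because the watered OE values chose the pair.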

How the results depend on the processing

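The pair's drought difference in WT, given with no test, kept its direction in all 18 alternatives for both genes (5.67 to 6.80 for Potri.014G103000 and 5.19 to 6.17 for Potri.001G083700, where leaving out a library gave 5.67 to 6.80 and 5.19 to 6.11). The lower level of Potri.001G083700 in OE drought kept its direction and its call in all 19 (-2.89 to -1.97, the same range when a library was left out, with adjusted p from 4.89e-05 to 0.0255). The higher level of Potri.014G103000 in OE drought ranged from 0.66 to 1.22, and from 0.66 to 1.05 when a library was left out. It passed only without WT watered replicate 2 (adjusted p = 0.0340). The difference of the pair's log2 ratio between WT groups ranged from -0.06 to 1.23 when a library was left out, and that between genotypes in drought from 3.02 to 3.54.

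Counts over all genes depended more on the processing. In WT drought 8596 genes rose, 5685 with median-of-ratios scaling and 3963 with a log2 change of at least 1; 61.0% of called genes rose, and 45.1% with that scaling. In OE drought 7040 rose, and 4323 with a log2 change of at least 1. In watered leaves 25 genes were higher and 10 lower in OE, against 16 and 3 with a pseudocount of 0.1, 10 and 5 with voom, and 1 and 1 with only the 2 groups fitted. In drought 2333 were higher and 5122 lower in OE, against 3838 and 2521 with median-of-ratios scaling, 1475 and 1822 with only the 2 groups and 1353 and 2069 with a log2 change of at least 1. Leaving out a library gave 6629 to 8881 and 4678 to 5723 in WT drought, 5929 to 7359 and 7687 to 9292 in OE drought, 2 to 65 and 2 to 160 in watered leaves and 1477 to 2902 and 2500 to 6224 in drought.

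Deviations of same-numbered WT and OE libraries correlated at 0.015, -0.497 and -0.017 when watered and -0.054, 0.218 and 0.134 in drought. Differently numbered libraries gave -0.351 to 0.433 when watered and -0.184 to 0.163 in drought. With 3 libraries per group, these values cannot decide whether replicate numbers pair the libraries. With a replicate block, 3 genes were higher and 1 lower in watered OE leaves, 2032 and 4498 in drought, and the pair's drought differences were 0.91 (adjusted p = 0.229) and -2.38 (adjusted p = 0.00598).

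Of named genes, Potri.002G176300 changed the sign of its interaction with median-of-ratios scaling (0.12) and ranged from -0.70 to 0.13 when a library was left out, and Potri.012G023700 ranged from -0.01 to 0.28 between genotypes in drought. Neither had passed. The cause of these changes was not tested. Values of a few FPKM, as in watered leaves, rest on few fragments, so small differences there were not detectable.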
